A study of Mus musculus with 12 samples.

Results

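Transcripts of heat shock chaperones were counted by RNA-seq in brain tissue from wild-type C57BL/6 mice, 6 weeks old. The set held 10 genes named by symbol (Hspa1a, Hspa1b, Hsph1, Dnajb1, Hsp90aa1, Hspb1, Hspa8, Bag3, Hspe1 and Hspd1) of 21983 rows in the deposited count table, and 10 of 10 were present and passed the filter on low counts. The 3 groups had 4 libraries each: mice with experimental cerebral malaria (ECM) given the antimalarial drug artesunate (treated ECM), mice with ECM and no artesunate, and normal control mice. The labels name 4 days for the treatment protocol, and name no parasite strain, infecting dose or drug dose. The labels do not say that each library came from its own mouse, so p-values measure the spread between libraries, which may be technical. For Hsp90aa1, whose row is displaced in the table, treated library 4 was left out.

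Heat shock proteins are molecular chaperones that bind unfolded protein and help it to fold, or pass it on for degradation. HSP70 proteins work in cycles of ATP hydrolysis that J-domain partners stimulate and nucleotide exchange factors complete, while HSP90 acts later on selected clients such as kinases and steroid receptors. Some family members are made at all times and others are made mainly under stress, when the transcription factor HSF1 binds heat shock elements, which are inverted repeats of GAA, in their promoters. In the brain the constitutive forms are abundant in neurons, and the small heat shock protein HSPB1 is known from reactive astrocytes and vessels. The proteins encoded by Hspe1 and Hspd1, HSP10 and HSP60, fold proteins inside mitochondria, so the label cytosolic describes the other 8 genes only.

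Reads in genes used for scaling numbered 12767654 to 18063035 per library. Neuron markers, which define brain tissue, summed to 6832 to 10440.4 CPM (the read count over the scaled library size) over 11 genes in every library. Libraries differed in brain region content: 12 cerebellum markers summed to 565 to 3196 CPM in treated ECM, 275 to 6963 CPM in ECM and 545 to 3413 CPM in controls, with the lowest sums in ECM 3, ECM 1 and control 4. Control 4 and ECM 3 also had the highest levels of several constitutive chaperones described below. In bulk tissue, fewer cells of a type and less RNA per cell cannot be told apart.

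The stress-inducible HSP70 genes Hspa1a and Hspa1b and the J-domain gene Dnajb1 were higher in treated ECM than in either other group. By edgeR no other gene of the 10 was called in any comparison, among them the stress-responsive Hsp90aa1 and the constitutive Hspa8. In treated ECM against ECM, 3 of 10 genes were called higher and 0 lower at an adjusted p below 0.05, when 8.35% of the 14595 genes tested were called (3.3% higher and 5.04% lower). In treated ECM against control, the same 3 genes (Hspa1a, Hspa1b and Dnajb1) were called higher, when 2.04% of all genes were called (1.99% higher and 0.0548% lower). In ECM against control, edgeR called 0 of 10 genes, when 10.3% of all genes were called (7% higher and 3.27% lower). There, 2 of 10 had an unadjusted p below 0.05, and DESeq2 called 2, Hspb1 and Bag3, as higher. The 10.3% counts edgeR calls after adjustment and is no measure for these 2 counts. Their own shares over all genes are not given here, so no excess among the 10 can be read from them. The median log2 fold change over the 10 genes was 0.30, 0.35 and 0.13 in these 3 comparisons, beside 0.01, 0.00 and -0.02 over all genes tested. Both comparisons with treated ECM use the same 4 treated libraries, and both comparisons with control the same 4 control libraries, so their values are not independent of each other.

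**Figure D1:**
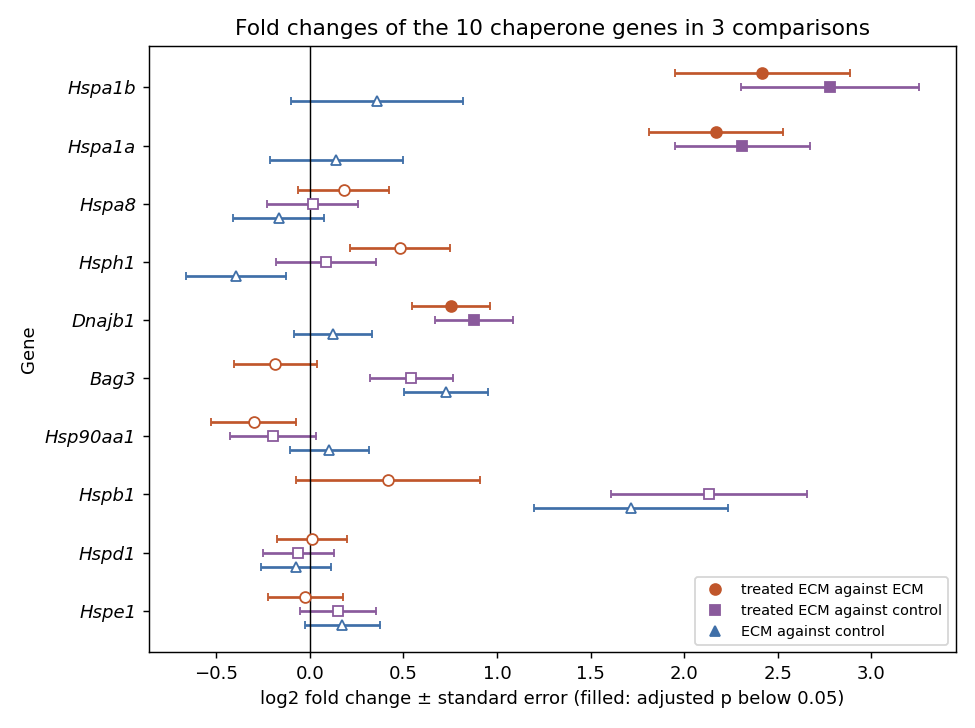
Log2 fold change ± standard error (x axis) of each of the 10 genes (y axis) in treated ECM against ECM, treated ECM against control and ECM against control, with filled symbols at an adjusted p below 0.05. Hspa1b and Hspa1a lie at 2.17 to 2.78 in both comparisons with treated ECM and at 0.36 and 0.14 in ECM against control, while Hspb1 and Bag3 lie above 0 in both comparisons with control without a call.

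Hspa1b and Hspa1a encode the nearly identical stress-inducible HSP70 proteins. They lie next to each other on the minus strand of chromosome 17 (build mm10), Hspa1b at 34956436 to 34959238 and Hspa1a at 34969190 to 34972156, with 9951 bases between them. Because these 2 of the 10 genes had the largest change in treated ECM, the 250 bases before each start are shown here from RefSeq (GRCm38.p6), at chr17:34959239-34959488 and chr17:34972157-34972406, both minus strand, with matches to the 2-unit heat shock element letters GAANNTTC in capitals.
Hspa1b: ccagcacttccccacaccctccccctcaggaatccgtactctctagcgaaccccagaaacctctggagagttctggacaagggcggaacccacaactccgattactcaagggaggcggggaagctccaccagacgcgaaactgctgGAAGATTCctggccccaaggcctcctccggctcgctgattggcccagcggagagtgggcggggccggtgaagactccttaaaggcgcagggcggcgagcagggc
Hspa1a: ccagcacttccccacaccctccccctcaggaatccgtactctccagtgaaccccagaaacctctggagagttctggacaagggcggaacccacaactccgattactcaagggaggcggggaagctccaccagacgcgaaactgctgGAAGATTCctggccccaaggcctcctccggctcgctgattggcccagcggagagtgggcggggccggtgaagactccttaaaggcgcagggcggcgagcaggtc
The 300-base windows of the 2 genes, which run 50 bases past the start, differed at 4 positions, written with the Hspa1a base first and counted from the 5′ end of the window: C44T, T47C, T249G and C276T. None of these fell in the capitals, which read GAAGATTC at 104 to 97 bases before the start of each gene. Their transcripts are also alike: 62.3% of the 50-base words of the Hspa1b transcript occurred in that of Hspa1a, so the authors' counting could have split or dropped reads between the pair.

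Hspa1b had 11.9, 38.3, 56.9 and 70.2 CPM in the treated ECM libraries 1 to 4, against 9.11, 4.45, 6.22 and 13.1 CPM in ECM and 8.91, 6.34, 5.49 and 4.997 CPM in controls. Treated library 1 lay below ECM library 4, and the other 3 treated libraries lay above all 8 libraries of the other groups. The log2 fold change was 2.42 ± 0.47 against ECM (5.35-fold, edgeR quasi-likelihood test, adjusted p = 0.00802) and 2.78 ± 0.48 against control (6.86-fold, adjusted p = 0.00522). In ECM against control it was 0.36 ± 0.46 (adjusted p = 0.714), with an interval of 2 standard errors from -0.56 to 1.28.

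Hspa1a had 7.84, 21.2, 25.5 and 32.4 CPM in treated ECM, against 4.16, 4.77, 4.15 and 6.15 CPM in ECM and 5.90, 3.66, 3.66 and 4.21 CPM in controls. Here all 4 treated libraries lay above all 8 others, with treated library 1 nearest to them. The log2 fold change was 2.17 ± 0.36 against ECM (4.50-fold, adjusted p = 0.00365) and 2.31 ± 0.36 against control (4.96-fold, adjusted p = 0.00254), and 0.14 ± 0.36 in ECM against control (adjusted p = 0.868). By fold change, Hspa1b and Hspa1a ranked 18 and 31 from the top of the 14595 genes in treated ECM against ECM. In treated ECM against control they ranked 153 and 190. In the annotation used here, the opposite strand of Hspa1a carries the gene model Gm20481 over 2225 bases. That gene model has 0 counts in every library of the table.

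With the counts of both genes added to 1 gene, the pair had 19.8, 59.6, 82.4 and 103 CPM in treated ECM, against 13.3, 9.22, 10.4 and 19.3 CPM in ECM and 14.8, 10.004, 9.15 and 9.21 CPM in controls. The summed pair rose in treated ECM by 2.34 ± 0.41 on the log2 scale against ECM (adjusted p = 0.00503) and by 2.61 ± 0.42 against control (adjusted p = 0.00310). The share of the pair's reads assigned to Hspa1b was 60.3%, 64.4%, 69.1% and 68.4% in treated ECM, 68.6%, 48.2%, 60.0% and 68.1% in ECM and 60.2%, 63.4%, 60.0% and 54.3% in controls, so the ranges overlapped. Per length, the pair was 3.47%, 9.18%, 12.4% and 13.4% of the level of the constitutive HSP70 gene Hspa8 in treated ECM, 2.501%, 1.74%, 1.22% and 4.48% in ECM and 2.66%, 1.66%, 1.87% and 0.935% in controls. Per length, Hspa8 was thus the higher in every library.

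The authors' deposited tables list only genes with an absolute log2 fold change of at least 1.000 and an unadjusted p up to 0.05, so Bag3 and Dnajb1, with smaller changes, could not appear in them. In the authors' deposited table of treated ECM against ECM, the log2 fold change was 2.41 for Hspa1b (adjusted p = 9.85e-06) and 2.16 for Hspa1a (adjusted p = 9.85e-07). In the authors' deposited table of treated ECM against control, it was 2.78 for Hspa1b (adjusted p = 4.23e-08), 2.31 for Hspa1a (adjusted p = 3.17e-07) and 2.13 for Hspb1 (adjusted p = 4.41e-05). In the authors' deposited table of ECM against control, Hspb1 is the one gene of the 10 and has a log2 fold change of 1.73 (adjusted p = 0.00646).

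**Figure D2:**
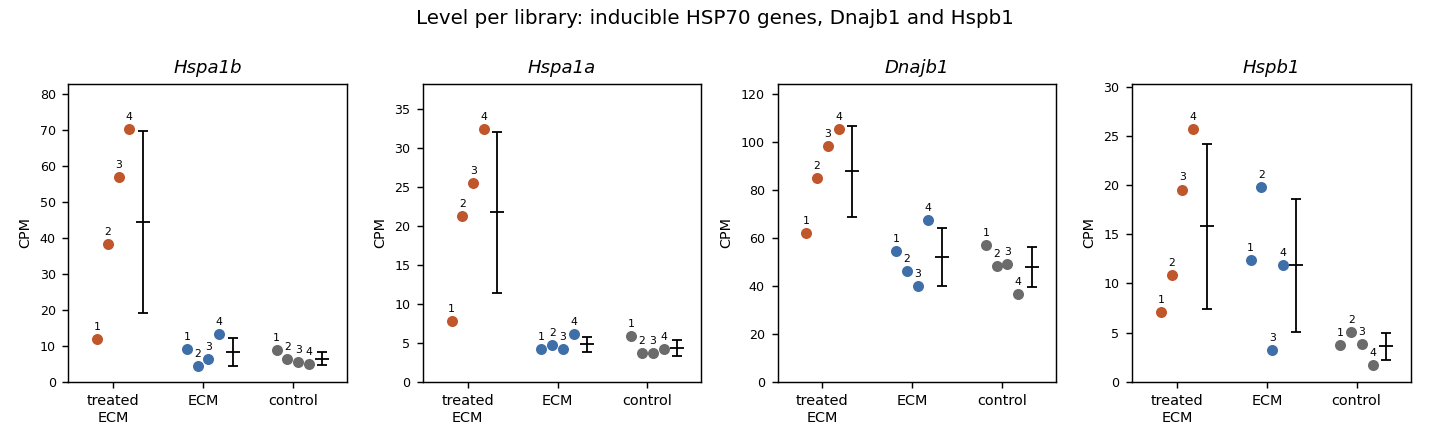
CPM (y axis, from 0) of Hspa1b, Hspa1a, Dnajb1 and Hspb1 in each library of treated ECM, ECM and control (x axis), with points numbered by replicate and bars for the mean ± SD. The panels of Hspa1b, Hspa1a and Dnajb1 show treated libraries 2 to 4 above the other groups and treated library 1 near them, while Hspb1 is also high in 3 of 4 ECM libraries.

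Dnajb1, the J-domain partner that delivers substrates to HSP70 (chromosome 8, 83608193 to 83612653), had 62.1, 84.9, 98.4 and 105 CPM in treated ECM, against 54.4, 46.0, 40.0 and 67.5 CPM in ECM and 56.8, 48.3, 49.1 and 36.6 CPM in controls. Treated library 1 lay below ECM library 4 and above all control libraries. It was 1.69-fold higher than in ECM (log2 fold change 0.75 ± 0.21, adjusted p = 0.0416) and 1.84-fold higher than in control (0.88 ± 0.21, adjusted p = 0.0495). Both calls lie close to the threshold, and 12 of 20 alternative settings lost each of them, with adjusted p up to 0.12 against ECM and 0.193 against control. Leaving out any of the treated libraries 2 to 4, any of ECM 1 to 3 or any of control 1 to 3 ended the call against ECM. Leaving out any of the treated libraries 2 to 4, ECM 1 or 2, or any control library ended it against control. Its log2 fold change in ECM against control was 0.12 ± 0.21 (adjusted p = 0.790).

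Hsph1 encodes HSP110, which exchanges nucleotides on HSP70 (chromosome 5, 149614287 to 149636376). It had 286, 373, 428 and 401 CPM in treated ECM, against 299.5, 184, 386 and 196 CPM in ECM and 301, 299, 275 and 527 CPM in controls. The groups overlapped, and control 4 was far above the other 3 controls. The log2 fold change was 0.48 ± 0.27 in treated ECM against ECM (adjusted p = 0.271), 0.09 ± 0.27 against control (adjusted p = 0.894) and -0.40 ± 0.27 in ECM against control (adjusted p = 0.431). With the cerebellum score as a covariate, Hsph1 was called higher in treated ECM against ECM (0.79, adjusted p = 0.00427) and lower in ECM against control (-0.62, adjusted p = 0.00670).

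Bag3 encodes a BAG-domain exchange factor that links HSP70 to small heat shock proteins and to autophagy (chromosome 7, 128523616 to 128546981). It had 12.2, 13.8, 14.6 and 20.0 CPM in treated ECM, against 14.0, 20.0, 15.8 and 19.0 CPM in ECM and 11.6, 12.8, 9.99 and 7.07 CPM in controls. All ECM libraries lay above all control libraries, while treated ECM overlapped both. In ECM against control the log2 fold change was 0.73 ± 0.22 (1.65-fold, adjusted p = 0.0570), just short of the threshold. It was called under RLE scaling (adjusted p = 0.0491), by DESeq2 (adjusted p = 0.0147) and with the cerebellum score as a covariate (adjusted p = 0.0101). In treated ECM it differed by -0.18 ± 0.22 from ECM (adjusted p = 0.626) and by 0.54 ± 0.22 from control (adjusted p = 0.388).

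Hspb1 encodes the small heat shock protein HSP27 in human and HSP25 in mouse, which holds unfolded protein without ATP and binds the actin cytoskeleton. Its gene lies on chromosome 5 at 135887919 to 135889563. The 250 bases before its start (RefSeq, chr5:135887669-135887918, plus strand) are shown because they hold 2 separate matches to GAANNTTC, in capitals.
Hspb1: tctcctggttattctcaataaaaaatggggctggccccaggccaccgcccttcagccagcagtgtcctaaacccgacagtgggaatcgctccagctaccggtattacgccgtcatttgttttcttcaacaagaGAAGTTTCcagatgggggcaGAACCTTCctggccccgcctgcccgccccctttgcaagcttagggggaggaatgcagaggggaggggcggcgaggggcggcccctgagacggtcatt
Hspb1 had 7.12, 10.9, 19.5 and 25.7 CPM in treated ECM, against 12.4, 19.8, 3.23 and 11.9 CPM in ECM and 3.73, 5.10, 3.81 and 1.71 CPM in controls. All treated libraries lay above all controls, and 3 of 4 ECM libraries did, with ECM 3 inside the control range. The log2 fold change was 2.13 ± 0.52 in treated ECM against control (4.39-fold, adjusted p = 0.0572) and 1.72 ± 0.52 in ECM against control (3.29-fold, adjusted p = 0.0523), so neither passed the threshold. Without ECM 3 both passed (2.14, adjusted p = 0.0153, and 2.04, adjusted p = 0.00973), and so they did without treated library 1 (adjusted p = 0.0286 and 0.0455) and by DESeq2 (adjusted p = 0.000871 and 0.00525). Between treated ECM and ECM the log2 fold change was 0.42 ± 0.49 (adjusted p = 0.620), with an interval of 2 standard errors from -0.57 to 1.40.

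Endothelial markers summed over 7 genes to 306 to 389 CPM in treated ECM, 437 to 608 CPM in ECM and 253 to 313 CPM in controls, with 0 of 7 at 0 counts in any group. In ECM against control 4 of 7 were called higher and 2 lower, when 7% and 3.27% of all genes tested were. In treated ECM against ECM 0 were called higher and 2 lower, when 3.3% and 5.04% of all genes tested were. Astrocyte markers summed over 7 genes to 3869 to 4549 CPM in treated ECM, 4734 to 6047 CPM in ECM and 4502 to 6095 CPM in controls, with 0 of 7 at 0 counts. Only 2 of these 7 were called in treated ECM against ECM, both lower: Gfap (log2 fold change -1.28 ± 0.23, adjusted p = 0.00540) and Aldh1l1 (-0.69 ± 0.19, adjusted p = 0.0435). The same 2 of 7 were called in ECM against control, both higher, Gfap by 2.07 ± 0.24 (adjusted p = 5.38e-05) and Aldh1l1 by 1.14 ± 0.19 (adjusted p = 0.00160). The median log2 fold change over the 7 astrocyte markers was -0.31 and 0.05 in these 2 comparisons. The part of both marker lists in the Hspb1 values was not tested.

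Hspa8 encodes HSC70, the constitutive HSP70 of the cytosol (chromosome 9, 40800984 to 40810087). It had 854, 976, 1005 and 1155 CPM in treated ECM, against 800.4, 791, 1277 and 649.7 CPM in ECM and 836, 907, 734 and 1473 CPM in controls. The groups overlapped, with control 4 and ECM 3 highest. The log2 fold change was 0.18 ± 0.24 against ECM (adjusted p = 0.665, interval -0.30 to 0.67), 0.01 ± 0.24 against control (adjusted p = 0.984, interval -0.47 to 0.50) and -0.17 ± 0.24 in ECM against control (adjusted p = 0.753). Intervals here and below span 2 standard errors on each side.

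Hsp90aa1 encodes the stress-responsive form of cytosolic HSP90 (chromosome 12, 110690605 to 110702728). It had 762, 758 and 789 CPM in treated libraries 1 to 3, against 857, 1017, 1245 and 673 CPM in ECM and 780.4, 781, 744 and 1224 CPM in controls. The 3 treated libraries lay close together inside the range of both other groups. The log2 fold change, from 11 libraries, was -0.30 ± 0.23 in treated ECM against ECM (adjusted p = 0.424, interval -0.76 to 0.16), -0.20 ± 0.23 against control (adjusted p = 0.697) and 0.10 ± 0.21 in ECM against control (adjusted p = 0.834). A rise of the size seen for Hspa1b lies outside these intervals.

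Hspe1 and Hspd1 encode the mitochondrial HSP10 and HSP60, which together form a folding chamber. The genes lie head to head on chromosome 1, Hspe1 on the plus strand at 55088132 to 55091307 and Hspd1 on the minus strand at 55077835 to 55088243, and share 112 bases in the annotation, so reads from that overlap cannot be assigned without strand. Before the Hspe1 start, inside the annotated Hspd1 span, the heat shock element letters repeat without a gap, 89 to 72 bases from that start. The run is shown on the Hspe1 strand (RefSeq, chr1:55087898-55088147, plus strand) with those letters in capitals.
Hspe1: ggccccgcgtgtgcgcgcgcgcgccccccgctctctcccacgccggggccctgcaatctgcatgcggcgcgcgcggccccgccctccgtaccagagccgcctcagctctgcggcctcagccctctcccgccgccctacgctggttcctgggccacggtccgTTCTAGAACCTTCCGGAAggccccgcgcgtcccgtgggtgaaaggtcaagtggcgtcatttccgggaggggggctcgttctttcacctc
Hspe1 had 52.4, 62.3, 60.0 and 68.2 CPM in treated ECM, against 51.2, 90.5, 59.1 and 46.2 CPM in ECM and 46.0, 51.5, 58.0 and 63.5 CPM in controls. Hspd1 had 154, 166, 174 and 182 CPM in treated ECM, against 145, 198, 202 and 125 CPM in ECM and 157, 172, 145 and 232 CPM in controls. The groups overlapped for both genes. In treated ECM against ECM the log2 fold change was -0.02 ± 0.20 for Hspe1 (adjusted p = 0.952, interval -0.43 to 0.38) and 0.01 ± 0.19 for Hspd1 (adjusted p = 0.977, interval -0.37 to 0.39), where RLE scaling gave -0.02. Against control, treated ECM differed by 0.15 ± 0.20 for Hspe1 (adjusted p = 0.735) and by -0.06 ± 0.19 for Hspd1 (adjusted p = 0.891). The values in ECM against control were 0.17 ± 0.20 for Hspe1 (adjusted p = 0.680) and -0.07 ± 0.19 for Hspd1 (adjusted p = 0.870).

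A search of promoter windows from 250 bases before to 50 after each RefSeq start compared the genes by sequence. Windows were found for 8 of the 10 genes (11 windows), not for Hspa8 and Hsp90aa1. At least 1 match to GAANNTTC or TTCNNGAA was found for 7 of the 8, and none of these letters for Dnajb1. Of all 32851 mouse windows, 15.1% held a match. The 7 are genes with a match in any of their windows, while the percentage counts single windows. Both strands are covered, because each motif is its own reverse complement. The 3-unit forms, in which a further GAA or TTC follows after 2 bases and which contain both 2-unit motifs, were found for 3 genes (Hspe1, Hspd1 and Hsph1) and in 0.603% of all windows. The windows of Hspe1 and of the nearer Hspd1 start share 285 bases and thus the same match. The 3-unit match of Hsph1 lay after the start, at bases 16 to 28 or 37 to 49 depending on the window. The only match of Bag3 also lay after its start, at bases 43 to 50. Among the 3 genes called higher in treated ECM, Hspa1a and Hspa1b held 1 GAANNTTC each and Dnajb1 no match. Hspe1 and Hspd1, with the longest run, were not called. Only exact letters within these windows were searched, so no match does not mean no heat shock element. A link between matches and levels was not tested.

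Levels can be set against each other per length, as CPM per kilobase of annotated exon. In controls, Hspa8 (229.6 ± 77.1) and Hsp90aa1 (224 ± 58.1) stood highest, followed by Hspd1 (66.7 ± 14.6), Hsph1 (48.2 ± 16.3), Hspe1 (37.1 ± 5.18) and Dnajb1 (14.9 ± 2.61; SD, n = 4 each). Bag3 (4.05 ± 0.973), Hspb1 (3.48 ± 1.36), Hspa1b (2.30 ± 0.621) and Hspa1a (1.47 ± 0.357) stood lowest. Neighbours kept this order in 4 of 4 controls, except Hspa8 and Hsp90aa1 (2 of 4), Hsph1 and Hspe1 (3 of 4) and Hspb1 and Hspa1b (3 of 4). Bag3 and Hspb1, in the same order in 4 of 4, overlapped in range. In treated ECM, Hspa1b (15.8 ± 9.002) and Hspb1 (15.3 ± 8.13) stood next to Dnajb1 (27.4 ± 5.93), above Hspa1a (7.33 ± 3.49) and Bag3 (5.91 ± 1.33; SD, n = 4 each), with wide spread. Of the 50-base words, 62.3% of the Hspa1b transcript occurred in Hspa1a, and 58.8% of the Hspa1a transcript in Hspa1b. Reads from these stretches may have been dropped while the full exon length was used. The levels of both genes per length may thus be too low, and their places in both orders are uncertain.

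Other genes of the chaperone network were counted in 9 lists with 73 genes, of which 69 were tested. In treated ECM against ECM, 9 were called higher and 4 lower (median log2 0.02), beside 3.3% and 5.04% of all genes tested. In treated ECM against control, 2 were called higher and 0 lower (median 0.08), beside 1.99% and 0.0548% of all genes. In ECM against control, 1 was called higher and 3 lower (median 0.04), beside 7% and 3.27% of all genes. These percentages also apply to the single lists below. Of HSP90 and its cochaperones, 3 of 10 were higher in treated ECM than in ECM. Chordc1, an HSP90-binding zinc protein, averaged 94.8 ± 15.8 CPM in treated ECM and 42.9 ± 8.04 CPM in ECM (log2 fold change 1.15 ± 0.20, adjusted p = 0.00447). It was also the one gene of this list called in ECM against control, where it fell to 42.9 ± 8.04 CPM in ECM, against 97.3 ± 21.9 CPM in controls (-1.18 ± 0.20, adjusted p = 0.00131). Fkbp4, a steroid receptor cochaperone, averaged 198 ± 29.4 CPM in treated ECM and 116 ± 13.9 CPM in ECM (0.77 ± 0.18, adjusted p = 0.0223), and Ahsa1, which stimulates the HSP90 ATPase, 137 ± 11.6 and 96.6 ± 6.91 CPM (0.51 ± 0.13, adjusted p = 0.0296; SD, n = 4 each). Hsp90ab1, the constitutive HSP90, differed by 0.01 ± 0.21 from ECM (adjusted p = 0.987).

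Of 9 J-domain genes, edgeR called 1 in treated ECM against ECM, Dnaja4, with 35.2 ± 2.23 CPM in treated ECM and 17.4 ± 4.27 CPM in ECM (log2 fold change 1.01 ± 0.19, adjusted p = 0.00599). DESeq2 called Dnajc7 as well, as lower (-0.76, adjusted p = 0.0468). Of 4 other small heat shock protein genes tested, 1 was called higher and 1 lower in treated ECM against ECM, and 1 higher and 1 lower in ECM against control. Cryab, which encodes alpha-B crystallin of glia, averaged 111 ± 26.7 CPM in treated ECM and 55.9 ± 8.48 CPM in ECM (0.99 ± 0.21, adjusted p = 0.0114), and was lower in ECM than in controls (96.7 ± 23.2 CPM; -0.79 ± 0.20, adjusted p = 0.0247). Hspb6 averaged 5.37 ± 0.875 CPM in treated ECM and 12.6 ± 4.41 CPM in ECM (-1.23 ± 0.25, adjusted p = 0.0103), and was higher in ECM than in controls (5.91 ± 0.854 CPM; 1.09 ± 0.25, adjusted p = 0.0117; SD, n = 4 each). Hsf1, the factor that drives the heat shock response, averaged 31.1 ± 1.72 CPM in treated ECM, 19.8 ± 4.95 CPM in ECM and 26.6 ± 4.95 CPM in controls, and edgeR did not call it (0.65 ± 0.20 in treated ECM against ECM, adjusted p = 0.0619), while DESeq2 called it higher there (adjusted p = 0.0239). Among HSP70 relatives Hspa14 was lower in treated ECM than in ECM (-0.68 ± 0.18, adjusted p = 0.0385). Hspa4l is listed at 0 in every library.

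Among 14 chaperones of the endoplasmic reticulum, 4 were higher in treated ECM than in ECM. The smallest adjusted p-values were those of Creld2 (log2 fold change 1.10 ± 0.17, adjusted p = 0.00224), the disulfide isomerase gene Pdia6 (0.91 ± 0.17, adjusted p = 0.00624) and the cochaperone gene Sdf2l1 (1.65 ± 0.34, adjusted p = 0.0109). Creld2 (0.74 ± 0.17, adjusted p = 0.0336) and Sdf2l1 (1.47 ± 0.34, adjusted p = 0.0378) were also higher than in control. Hspa5, the HSP70 of that compartment, was not called (0.53 ± 0.19 against ECM, adjusted p = 0.0983). Of 8 other mitochondrial chaperones 2 were lower in treated ECM than in ECM, Clpx (-0.62 ± 0.16, adjusted p = 0.0329) and the mitochondrial HSP70 gene Hspa9 (-0.59 ± 0.16, adjusted p = 0.0366). Dnaja3, a mitochondrial J-domain gene, was lower in ECM than in control (-0.41 ± 0.12, adjusted p = 0.0449).

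**Figure D3:**
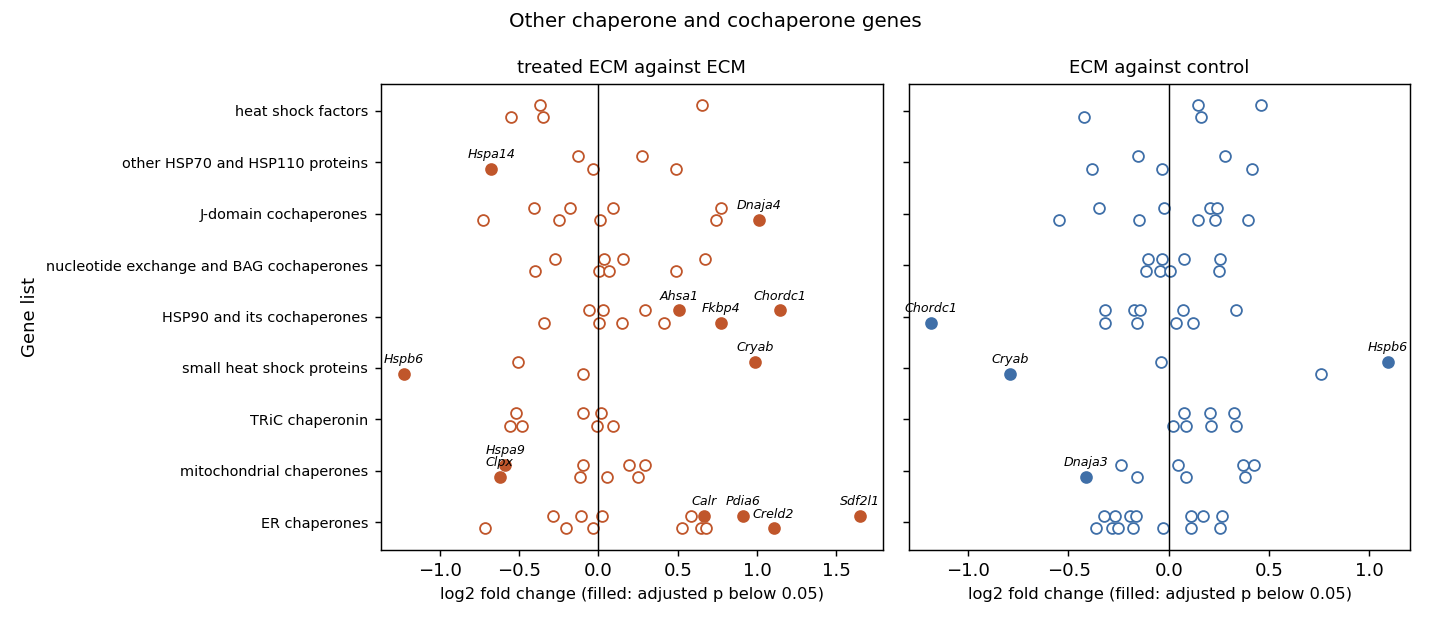
Log2 fold change (x axis) of each tested gene in 9 chaperone lists (y axis) in treated ECM against ECM and in ECM against control, with called genes filled and named. In the comparison of treated ECM with ECM, 9 filled points lie above 0 and 4 below, and Chordc1, Cryab and Hspb6 are filled in both panels with opposite signs.

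Genes whose pattern over 11 libraries (without treated 4) was most like the mean standardised log2 CPM of Hspa1a, Hspa1b, Hsph1 and Dnajb1 were Nr4a2, a nuclear receptor gene of the immediate early class (Pearson r = 0.93), Ciita (0.91), Pdia6 (0.90), Ddx31 (0.88) and Arc (0.86). These values describe libraries that share groups and depth. The mean holds Hspa1a, Hspa1b and Dnajb1, all called higher in treated ECM, so choosing by likeness to it favoured genes high in that group. The group differences of the chosen genes below follow in part from this choice and are no separate result. Of the genes inside that mean, Hspa1b (0.97), Hspa1a (0.96) and Dnajb1 (0.87) lay close to it, and Hsph1 (0.47) did not. The 6 chaperone genes outside that mean lay between -0.34 (Hsp90aa1) and 0.38 (Hspb1). Nr4a2 was higher in treated ECM than in ECM (log2 fold change 0.82 ± 0.22, adjusted p = 0.0392) and was not called against control (0.66 ± 0.22, adjusted p = 0.260). Pdia6, called against ECM, was not called against control (0.66 ± 0.17, adjusted p = 0.0734), and Ddx31 was called in neither (0.42 ± 0.20, adjusted p = 0.202, and 0.35 ± 0.20, adjusted p = 0.493). Arc, an immediate early gene of neurons, was higher in treated ECM than in ECM (log2 fold change 2.22 ± 0.42, adjusted p = 0.00746) and than in control (2.11 ± 0.42, adjusted p = 0.0153). Ciita, the transactivator of MHC class II genes, was likewise higher against ECM (2.41 ± 0.34, adjusted p = 0.00159) and against control (2.66 ± 0.35, adjusted p = 0.000615).

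Immediate early genes, which respond to neuronal activity and to handling of tissue, differed between groups as well. Over 16 genes they summed to 910.0, 1158, 1539 and 1237 CPM in treated ECM, against 747, 641, 455 and 1648 CPM in ECM and 491, 326, 591 and 416 CPM in controls. The order of libraries by this sum and by Hspa1a, Hspa1b and Dnajb1 matched in part. Treated library 1 had the lowest sum and the lowest levels of these 3 genes in its group, and ECM 4 the highest of both in its group. Treated library 3 had the highest sum but treated library 4 the highest levels, and control 3 had the highest sum but control 1 the highest levels. The sum in ECM 4 was above that of every treated library. Its Hspa1a level was below all of them. Its Hspa1b and Dnajb1 levels were above those of treated library 1 (13.1 against 11.9 CPM and 67.5 against 62.1 CPM). Of 15 tested, 1 was called higher in treated ECM against ECM, 5 in treated ECM against control and 7 in ECM against control. Over all genes tested, 3.3%, 1.99% and 7% were called higher in these comparisons. Egr2, like Hspa4l above, is listed at 0 in every library and adds nothing to the sum, and the table does not show whether these are true absences of reads. T and NK cell markers summed over 7 genes to 20.4 to 46.5 CPM in treated ECM, 89.2 to 191 CPM in ECM and 0.167 to 0.458 CPM in controls, where Cd3g was at 0. Monocyte markers summed over 7 genes to 17.0 to 35.3 CPM in treated ECM, 101 to 264 CPM in ECM and 5.69 to 9.07 CPM in controls, with S100a4 at 0 in treated ECM and in controls. The part of these lists in the chaperone values was not tested.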

How the data were processed

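Per the labels' protocols, brains were protected in RNAlater and their total RNA went from Trizol extraction into NEBNext Ultra libraries. Read counts per gene are the authors' deposited values. Per the submitters' processing notes, Trimmomatic, FastQC, STAR, HTSeq and build mm10 were used, without versions. The authors' deposited tables of 3 comparisons give log2 fold changes and adjusted p-values, by a tool those sources do not name.

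In 2212 rows of the deposited count table, those with a gene name of 8 or more characters, the values are displaced, and they were put back. For 97 of 106 such genes, treated library 4 differed from the count in the authors' deposited tables, while 0 differed in the other 11 libraries or in shorter-named genes. These genes, Hsp90aa1 and Hsp90ab1 among them, were fitted without treated library 4. After 70 rows with unusable names were left out, 21913 genes remained.

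Library sizes were summed over genes with short names and scaled by TMM. Genes passing filterByExpr (minimum count 10) were tested with edgeR 4.0.16 (R 4.3.3) by glmQLFit and glmQLFTest in 1 model with a mean per group. Benjamini-Hochberg adjustment ran over 14595 genes per comparison, with calls below 0.05. The standard error is the log2 fold change divided by the square root of F. CPM uses the scaled library sizes. Alternatives used DESeq2 1.42.0. Positions come from GENCODE M21 and promoters from RefSeq (GRCm38.p6, the same build). The kit is not described in the labels as strand-specific. Tables and figures were made in Python 3.11.15.

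The 10 genes, the other lists and the tests were chosen with earlier results of these data known. Genes named are the 10, Hsf1, and up to 3 called genes per other list and comparison with the smallest adjusted p. Also named are markers at 0 counts in a group and the 5 genes most like the mean of Hspa1a, Hspa1b, Hsph1 and Dnajb1. Hspa4l, Egr2, Hsp90ab1, Hspa5, Dnajc7, Gfap, Aldh1l1 and Gm20481 were named after their values were seen.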

Additional observations from a re-analysis of the deposited data

Results flagged for a closer look

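Over 29 sets of 4 libraries (10 genes in 3 groups, without Hsp90aa1 in treated ECM), 1 library lay far from the other 3 in 2 of them, where chance gives about 1 in 20. Control 4 had 527 CPM of Hsph1, against 275 to 301 CPM in the other controls, a gap of 0.897 of the group's range. Control 4 also had 1224 CPM of Hsp90aa1, against 744 to 781 CPM in the other controls, a gap of 0.922 of the range. Without control 4 the log2 fold change of Hsph1 in ECM against control was -0.12, and that of Hsp90aa1 was 0.31. Neither was called with or without it. Control 4 had the lowest cerebellum marker sum of the controls, 545 CPM, against 2305 to 3413 CPM in the other 3. With the cerebellum score as a covariate, edgeR called Hsph1 lower in ECM against control (-0.62, adjusted p = 0.00670) and did not call Hsp90aa1. Whether brain region content gave the high values of control 4 was not tested.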

How the results depend on the processing

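Of 597 alternative values for the 10 genes, 529 kept direction and side of the threshold, 24 lost a call, 17 gained one and 27 turned in sign. In both comparisons with treated ECM, Hspa1a was called in 19 of 19 alternatives (adjusted p up to 0.0207 against ECM and 0.0177 against control) and Hspa1b in 20 of 20 (up to 0.0415 and 0.0305), while Dnajb1 was called in 8 of 20 (0.0122 to 0.12 against ECM, 0.00417 to 0.193 against control). Hspb1, not called in the main test, was called in 6 of 20 against control in treated ECM (0.000871 to 0.211) and in 6 of 20 in ECM (0.00525 to 0.138), and Bag3 in 3 of 20 in ECM against control (0.0101 to 0.14). In treated ECM against ECM, 1218 genes were called in the main test, 2147 by DESeq2, 2273 without control 4, ECM 2 and ECM 3 together, and 550 to 2099 with 1 library left out. The count moved by more than 1.5 times without treated library 1 (600), 2 (550), 3 (590) or 4 (638), ECM 4 (1969) or control 4 (2099). In treated ECM against control, 298 genes became 455 by DESeq2 and 469 without those 3 libraries. In ECM against control, 1498 genes became 867 with only those 2 groups in the fit, 2696 with the cerebellum score as a covariate and 2772 without those 3 libraries. Of the 10 genes, ECM against control then called 2 under RLE scaling, 2 by DESeq2 and 3 with the covariate, instead of 0. It called 1 without the 3 libraries and 0 to 1 with 1 library left out. Calls over all genes rose as well, from 1498 to 2696 with the covariate and to 2772 without the 3 libraries. Totals under RLE scaling and by DESeq2 are not given here for that comparison. These counts are thus no result about the 10 genes alone. The causes were not tested.

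Sign changes were limited to values without a call. Without the 3 libraries, treated ECM against ECM gave 0.0025 for Hsp90aa1 and 0.3139 for Hspe1, treated ECM against control gave 0.0925 for Hspd1, and ECM against control gave -0.0074 for Hsp90aa1 and -0.0876 for Hspe1. Hspd1 in treated ECM against ECM was -0.0182 under RLE scaling and -0.0181 by DESeq2. With 1 library left out, treated ECM against ECM ranged from -0.1406 to 0.2143 for Hspe1 and from -0.1053 to 0.1054 for Hspd1. Treated ECM against control ranged from -0.0138 to 0.3556 for Hsph1, -0.2708 to 0.0046 for Hsp90aa1, -0.104 to 0.2767 for Hspa8 and -0.1460 to 0.1011 for Hspd1. ECM against control ranged from -0.0040 to 0.3264 for Hspa1a, -0.0273 to 0.2435 for Dnajb1, -0.0412 to 0.3146 for Hsp90aa1, -0.3877 to 0.1021 for Hspa8, -0.0575 to 0.2905 for Hspe1 and -0.1606 to 0.0979 for Hspd1.

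Replicate numbers showed no pairing of the libraries: deviations of same-numbered libraries correlated at -0.571 to 0.282, and 1 of 12 libraries correlated best with its own number. Differences in brain region content enter these deviations, so the check cannot decide whether the numbers mark a pairing. With the replicate number as a block, 539, 219 and 1000 genes were called in treated ECM against ECM, treated ECM against control and ECM against control, and 2, 2 and 0 of the 10 genes. Dnajb1 then had an adjusted p of 0.11 against ECM and 0.185 against control. Hspa1a and the other low-count genes, at under 10 CPM in controls, carry more counting error than the constitutive genes.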
